A study of Arabidopsis thaliana with 4 samples.

Results

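The genes described are 49 cyclins, cyclin-dependent kinases (CDKs) and cell cycle regulators of Arabidopsis thaliana, named by locus from known gene families. No rule on their values was used, but the choice was made with earlier results of these data known. All 49 were found in the deposited table of 24288 loci, and 45 of them passed a minimum mean of 1 RPKM over the 4 libraries, as did 18688 loci in all. RPKM is the number of reads scaled by gene length and library total, so levels can be compared between genes. The families were A-type cyclins (7), B-type cyclins (9), D-type cyclins (10), CDKA (1), CDKB (4), KRP inhibitors (7), SIM and SMR1 (2), activators of the anaphase-promoting complex (3), E2F factors with DEL1 and RBR1 (5) and the cytokinesis syntaxin KNOLLE. For the comparison of phases, the 10 D-type cyclins stood for G1. The B-type cyclins, CDKB, CDC20.1, CDC20.2 and KNOLLE, 16 genes, stood for G2/M, and the 9 KRP, SIM and SMR1 genes for inhibitors. Gene names carry a hyphen in place of the semicolon of the RefSeq symbols.

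RNA came from whole seedlings of the Columbia ecotype, 12 days old, raised on Murashige and Skoog plates (3% sucrose) at 23 °C with 16 h of light and 8 h of dark. The genotypes were wild type, a mutant of the arginine methyltransferase gene PRMT5 (atprmt5), and the lines m90 and s215, with 1 library each. The series is about suppressors of atprmt5, but the labels name no gene for m90 or s215, nor do they state that these lines carry the atprmt5 mutation. With 1 library per genotype no test was possible, and every difference below is a difference between 2 libraries. Ratios carry a 95% exact interval from recovered reads, which covers counting error only and not the spread between plants.

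Plant cells enter division when D-type cyclins bind CDKA and the complex inactivates the retinoblastoma protein RBR1, which frees E2F factors to switch on S-phase genes. A-type cyclins act from S phase onward, and B-type cyclins with the plant-specific CDKB kinases carry cells through G2 into mitosis. Inhibitors of the KRP and SIAMESE families bind cyclin-CDK complexes, and the CDC20 and CCS52 proteins direct the anaphase-promoting complex to destroy cyclins. Transcripts of G2/M genes are found in dividing cells, mainly of meristems and young organs, while leaving division for endoreduplication goes with loss of mitotic CDK activity.

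The library totals that scaled the values lay between 17350612 and 17901204 reads. PRMT5, the gene named in the mutant, stood at 5.94 RPKM in wild type, at 1.25 in atprmt5, at 0.974 in m90 and at 1.70 in s215. It was thus lower than wild type in each of the other libraries. The s215 library stood apart from the rest. Its 10 root markers summed to 11.4 RPKM, where wild type, atprmt5 and m90 had 1599, 1541 and 1408, but PYK10 made up 97.1% of the wild-type sum. Without it the other 9 summed to 45.9, 56.4, 41.1 and 7.79 RPKM in wild type, atprmt5, m90 and s215. CASP1, CASP2, MYB36, EXPA7 and COBL9, 5 of the 10, were at 0 in s215 and in none of the other 3. FRO2 and NRT2.1, which serve iron and nitrate uptake, were instead higher in s215 than in wild type, at 1.68 against 0.258 RPKM and at 1.96 against 0.334. Of 9 measured meristem markers, 6 were at 0 in s215 (STM, KNAT1, CLV3, PLT1, PLT2 and WOX5), and CLV3 was also at 0 in wild type and m90. The list summed to 11.4 RPKM, where wild type, atprmt5 and m90 had 56.0, 76.7 and 61.6. The organ growth gene ANT was at 28.0 RPKM in wild type and 0.723 in s215. The 8 leaf markers summed to 30340, 34780, 34070 and 17390 RPKM in wild type, atprmt5, m90 and s215. LHCB1.3 was higher in s215 than in wild type, at 10357 against 7979 RPKM, and made up 59.6% of the s215 sum. The other 7 were all lower in s215, where their sum was 0.314 of wild type. GL2, SHR and SCR, also on these lists, were at 4.11, 4.05 and 6.60 RPKM in s215. The s215 library therefore lacked several defining transcripts of roots and meristems, although its label says seedlings. The part of these markers in the s215 results below was not tested. In RNA from whole seedlings, fewer dividing cells and less RNA per dividing cell cannot be told apart.

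The G2/M genes set the pattern. Their transcripts were lowest in s215, and in most cases climbed in the order wild type, atprmt5, m90. The 16 genes summed to 264 RPKM in wild type and to 362, 440 and 13.9 RPKM in atprmt5, m90 and s215. The D-type cyclins of G1 summed to 88.5, 82.1, 82.6 and 31.3 RPKM in the same order, and were thus nearly level in the first 3 libraries. The KRP inhibitors summed to 106, 111, 120 and 183 RPKM, with the highest sum in s215. KRP1 and KRP2 made up 83.4% of the s215 sum, and 4 of the 7 KRP genes were below wild type in s215. The summed KRP level was 0.401 of the summed G2/M level in wild type, and 0.306, 0.272 and 13.2 of it in atprmt5, m90 and s215. Without KNOLLE in the G2/M sum these ratios were 0.974, 0.766, 0.606 and 44.4, in the same order of libraries.

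**Figure D1:**
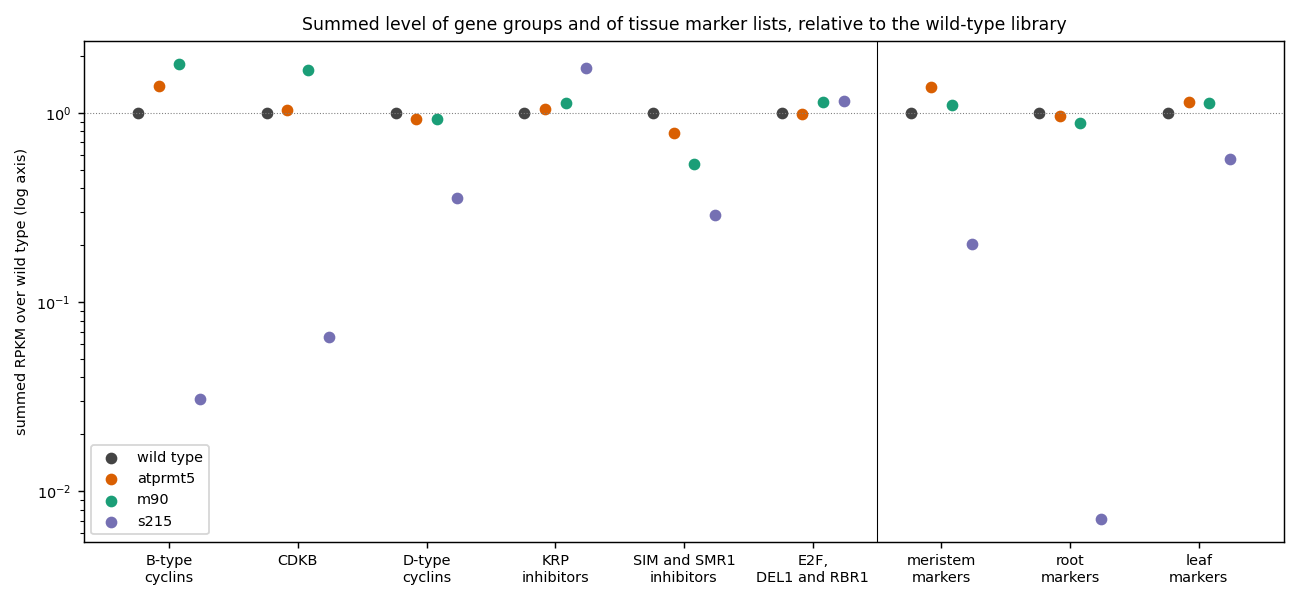
Summed RPKM of gene groups (left of the line) and of tissue marker lists (right), each divided by the wild-type library, on a log axis, with 1 point per library. In s215 the B-type cyclins stood at 0.0308 of wild type while the KRP inhibitors stood at 1.73, and the root and meristem markers were low in the same library.

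A gene was counted as different when its ratio of RPKM + 1 reached 2-fold, a scale on which low genes appear to change less than they do. In atprmt5 against wild type, 2 of 45 measured members were higher by this rule (CYCB1-1 and KRP3) and 0 lower, beside 1.8% and 3.32% of all loci. At 1.5-fold 5 were higher and 0 lower, beside 7.26% and 10.1%. In m90 against wild type 4 were higher (KRP3, CYCB1-4, CYCA1-1 and CYCB1-2) and 0 lower, beside 2.61% and 2.62%. With a pseudocount of 0.1 RPKM these counts were 7 and 1, beside 4.27% and 4.45% of all loci. At 1.5-fold the counts for m90 were 17 higher and 2 lower, beside 8.79% and 9.6% of all loci. Of those 17 members 13 belonged to the 14 measured G2/M genes. In s215 against wild type 2 members were higher (KRP1 and KRP2) and 26 lower, beside 12.7% and 24.3%, and at 1.5-fold 2 and 31, beside 22.5% and 35.1%. In m90 against atprmt5 CYCA2-3 alone of the 45 was higher and 0 were lower, beside 3.63% and 2.34%, and at 1.5-fold 6 and 1, beside 8.44% and 8.81%. In s215 against atprmt5 KRP2 alone of the 45 was higher and 28 were lower, beside 12.7% and 23.2%, and at 1.5-fold 5 and 31, beside 22.5% and 33.6%. These comparisons share libraries, so they do not stand as separate evidence.

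Of the 45 measured members 26 were below 1 RPKM in s215 and so passed the minimum through the other libraries, which favours a low ratio for s215. With no minimum, over all 49, the counts in the 5 comparisons were the same: 2 higher and 0 lower, 4 and 0, 2 and 26, 1 and 0, and 1 and 28. The shares of all 24288 loci were then 1.5% higher and 2.75% lower for atprmt5, 2.13% and 2.25% for m90 and 10.4% and 19.6% for s215, each against wild type. Against atprmt5 they were 2.93% and 1.94% for m90, and 10.4% and 18.6% for s215.

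In m90 the median of the G2/M genes stood above that of the D-type cyclins, though the ranges overlapped slightly. The inhibitors spread from below to above both groups. In m90 against wild type the median log2 ratio was 0.71 for 14 measured G2/M genes, all above 0, with a range of 0.45 to 1.16. It was 0.09 for 9 measured D-type cyclins (range -0.38 to 0.48), beside -0.04 for all loci. For 9 inhibitors it was 0.18 (range -0.96 to 1.25). In atprmt5 against wild type the medians were 0.36 for G2/M, 0.02 for G1 and -0.16 for inhibitors, beside 0.00 for all loci, and 12 of the 14 G2/M genes were above 0. In m90 against atprmt5 they were 0.39, 0.09 and 0.14, beside -0.04. The medians lay furthest apart in s215. Against wild type they were -2.50 for G2/M, -1.33 for G1 and -0.34 for inhibitors there, beside -0.15 for all loci. Against atprmt5, s215 gave -2.73, -1.38 and -0.45, beside -0.12. The inhibitor medians cover genes with opposite values, and at a minimum of 5 RPKM they turned to -0.21 in m90 against wild type and to 0.14 in s215 against atprmt5. The G1 median in atprmt5 against wild type turned to -0.15 at that minimum. With a pseudocount of 0.1 RPKM the G2/M median in s215 against atprmt5 was -4.47 and the G1 median -2.84.

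**Figure D2:**
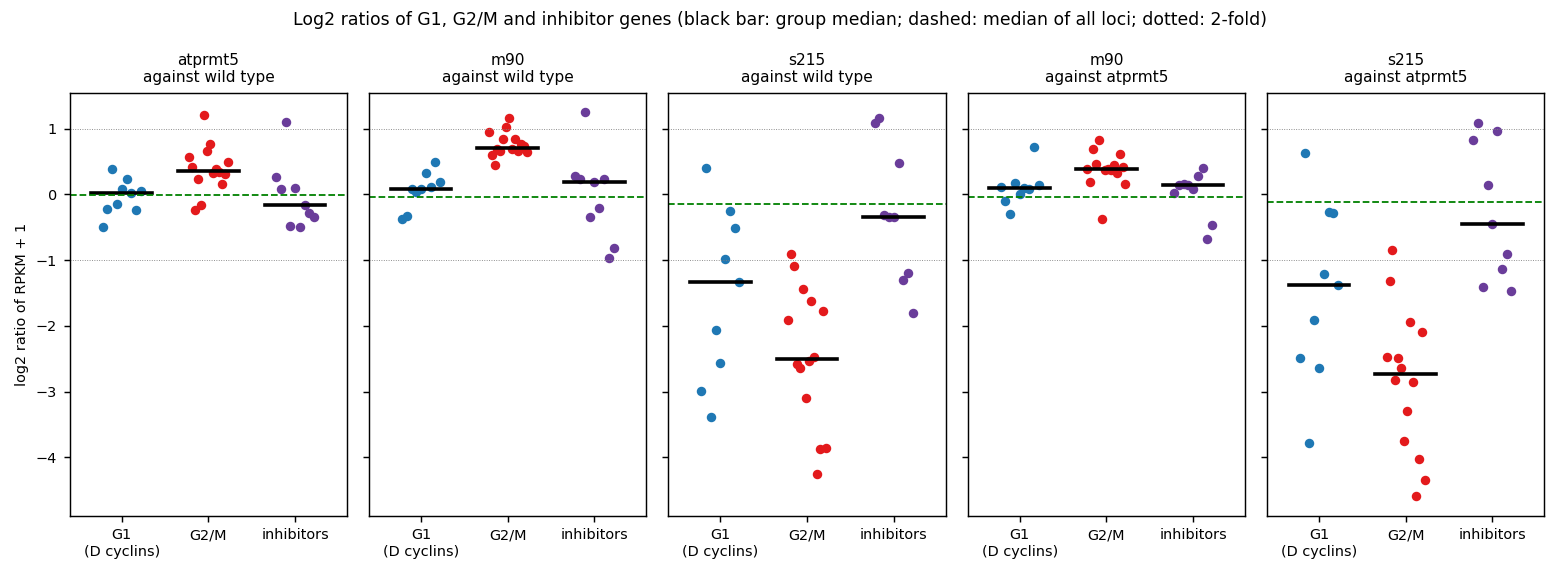
Log2 ratios of RPKM + 1 for the measured D-type cyclins (G1), G2/M genes and inhibitors in the 5 comparisons; points are genes, black bars medians, the dashed line the median of all loci and dotted lines 2-fold. In m90 against wild type all 14 G2/M points lie above 0, and in s215 they lie below it, while the inhibitors spread to both sides.

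The order of the libraries gave a view with no fold threshold. Of 45 measured members 24 were lowest in wild type, higher in atprmt5 and higher again in m90, an order that 15.0% of all loci had. They included 11 of the 14 G2/M genes and 7 of the 8 measured B-type cyclins. With no minimum 27 of 49 had it, beside 14.1% of all loci. Any rise counted, even within counting error, as for CYCD3-3 at 8.1228 RPKM in atprmt5 and 8.1249 in m90. The opposite order, falling from wild type through atprmt5 to m90, was held by 5 of 45 members (SIM, SMR1, CYCD2-1, CCS52A1 and E2FB), beside 19.3%. The s215 library was the lowest of the 4 for 37 of 45 members, beside 46.1% of all loci, and the highest for 7 (CYCD2-1, KRP1, KRP2, KRP6, E2FB, E2FC and RBR1), beside 36.5%. With no minimum the last 3 counts were 6, 40 and 8 of 49, beside 17.6%, 42.6% and 34.1%.

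B-type cyclins, the partners of mitotic CDKs, held the order most uniformly. CYCB2-3 (AT1G20610), the most abundant of them, was at 35.9 RPKM in wild type, at 45.7 in atprmt5, at 57.5 in m90 and at 0.933 in s215. CYCB2-4 was at 18.2, 20.4, 31.6 and 0.316 RPKM in the same order of libraries, and CYCB1-2 (AT5G06150) at 9.91, 16.2, 21.3 and 0.274. Each of these was highest in m90 and all but missing in s215. CYCB1-4 was at 7.88 RPKM in wild type, at 14.1 in atprmt5, at 18.8 in m90 and at 0.537 in s215. CYCB2-2 was at 5.15, 7.03, 9.98 and 0.110 RPKM, the last value resting on 3 reads. The less abundant members kept the same order. CYCB2-1 was at 2.74, 3.67, 5.04 and 0.214 RPKM, CYCB3-1 at 2.64, 3.50, 5.03 and 0.0591, and CYCB1-3, which missed the minimum, at 0.609, 0.803, 1.87 and 0.

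CYCB1-1 (AT4G37490), widely used as a reporter of G2/M cells and also known to respond to DNA damage, departed from that order. It was at 2.19 RPKM in wild type, at 6.38 in atprmt5, at 4.72 in m90 and at 0.179 in s215, and so highest in atprmt5. Its ratio of atprmt5 to wild type was 2.91 (2.18 to 3.97), the largest among B-type cyclins, and that of m90 to atprmt5 was 0.739 (0.586 to 0.926). For CYCB1-4 the ratio to wild type was 1.79 in atprmt5 (1.51 to 2.12) and 2.38 in m90 (2.03 to 2.80). For CYCB1-2 the ratios were 1.64 (1.41 to 1.90) and 2.14 (1.86 to 2.47). Ratios for CYCB2-3 were smaller, at 1.27 (1.18 to 1.38) in atprmt5 and 1.60 (1.49 to 1.72) in m90. Of its 100-base windows 13.7% also occur in AT1G20590, so its level is uncertain. The CYCB2-4 ratio was 1.12 in atprmt5 (0.981 to 1.28), an interval that holds 1, and 1.74 in m90 (1.54 to 1.96).

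In s215 all 8 measured B-type cyclins were past 2-fold lower than wild type, beside 24.3% of all loci. All 9 were below 1 RPKM there, so the 8 passed the minimum through the other libraries, which favours this result. With no minimum, 8 of 9 were past 2-fold lower in s215, beside 19.6%. CYCB2-4 stood at 0.0174 of wild type (0.00657 to 0.0342), CYCB2-3 at 0.0260 (0.0176 to 0.0376), CYCB1-2 at 0.0276 (0.0118 to 0.0552) and CYCB1-1 at 0.0816 (0.0257 to 0.202). CYCB1-3 had no read in s215 and was at least 5.395-fold lower than wild type, taking 3 reads as the floor for s215. The meristem markers given above were low in the same library.

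The promoters of B-type cyclins are shown because G2/M genes of plants are known to carry mitosis-specific activator (MSA) elements, with the core AACGG, which three-repeat MYB factors bind. The core, on either strand, occurred in the 250 bases upstream of the annotated start in 6 of 9 B-type cyclins, beside 20.6% of 27443 protein-coding genes. Longer MSA forms containing that core (TCTAACGG, TCCAACGG, CCTAACGG or CCCAACGG, either strand) occurred in the same 6 of 9 genes (CYCB1-1, CYCB1-2, CYCB1-3, CYCB2-1, CYCB2-2 and CYCB2-3), beside 1.79% of all. The other 7 G2/M genes and the 33 members outside G2/M held 0 of the longer forms in this window. For CDKB1-1, CDKB2-1, CDC20.1, CYCD3-1 and RBR1 the window overlaps another gene. Bases outside the window were not searched, so a longer form there would be missed. The ratio of m90 to wild type ran from 1.60 to 3.08 in the 6 genes with a longer form and from 1.74 to 2.38 in the 3 without (CYCB1-4, CYCB2-4 and CYCB3-1), so these ranges overlapped. KRP1 is shown beside them because it held 6 cores and 0 longer forms. Sequences are those of RefSeq TAIR10.1, 5′ to 3′ toward the gene on the minus strand, and capitals mark the core or the whole longer form. The regions are chr5:1861704-1861953 for CYCB1-2, chr4:17624309-17624558 for CYCB1-1, chr1:7137829-7138078 for CYCB2-3 and chr2:9978091-9978340 for KRP1. A match is a description and not a shown binding site.
CYCB1-2: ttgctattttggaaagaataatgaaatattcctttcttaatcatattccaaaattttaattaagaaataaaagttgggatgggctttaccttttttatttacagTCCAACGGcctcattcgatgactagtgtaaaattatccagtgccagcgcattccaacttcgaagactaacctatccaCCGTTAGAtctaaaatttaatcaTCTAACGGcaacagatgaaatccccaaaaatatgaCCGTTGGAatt
CYCB1-1: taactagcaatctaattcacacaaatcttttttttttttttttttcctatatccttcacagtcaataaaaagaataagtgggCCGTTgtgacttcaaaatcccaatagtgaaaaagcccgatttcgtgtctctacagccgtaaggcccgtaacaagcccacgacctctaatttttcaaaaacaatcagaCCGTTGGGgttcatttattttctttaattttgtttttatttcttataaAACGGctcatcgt
CYCB2-3: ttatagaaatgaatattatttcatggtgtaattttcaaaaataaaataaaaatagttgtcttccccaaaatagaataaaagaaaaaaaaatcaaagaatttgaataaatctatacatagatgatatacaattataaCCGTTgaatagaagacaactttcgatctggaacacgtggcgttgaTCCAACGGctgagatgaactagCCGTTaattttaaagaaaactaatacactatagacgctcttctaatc
KRP1: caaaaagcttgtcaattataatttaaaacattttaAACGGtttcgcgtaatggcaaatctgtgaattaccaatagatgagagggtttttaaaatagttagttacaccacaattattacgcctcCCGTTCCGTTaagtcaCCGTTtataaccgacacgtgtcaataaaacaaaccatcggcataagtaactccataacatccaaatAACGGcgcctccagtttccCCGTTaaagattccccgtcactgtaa

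E2F motifs (TTTCCCGC, TTTGGCGC, TTTCGCGC or TTTGCCGC, either strand, none of which contains the MSA core) were found in the same window of 2 members, CYCD3-3 and RBR1, beside 1.41% of all protein-coding genes. The core AACGG was in 4 of 7 KRP promoters (KRP1, KRP2, KRP3 and KRP7), 3 of 7 A-type cyclins and 1 of 10 D-type cyclins. It was also in CDKB2-2, KNOLLE, E2FA and RBR1. Together these are 10 of the 33 members outside G2/M and 2 of the 7 G2/M genes other than B-type cyclins. The share of all protein-coding genes was 20.6%, and with so few genes these counts are near it.

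The CDKB kinases, which pair with mitotic cyclins and are themselves most abundant around G2/M, were highest in m90. CDKB2-1 was at 8.31 RPKM in wild type, at 9.92 in atprmt5, at 14.0 in m90 and at 0.549 in s215. CDKB2-2 was at 8.99, 7.92, 14.7 and 0.595 RPKM. CDKB1-1, known from work on stomatal divisions and endoreduplication, was at 1.34, 0.974, 2.19 and 0.0956 RPKM. Unlike the B-type cyclins, 2 of these 3 were lower in atprmt5 than in wild type, with intervals that hold 1. For CDKB2-2 that ratio was 0.881 (0.713 to 1.09), and for CDKB1-1 0.727 (0.392 to 1.33). The ratio of m90 to wild type was 1.69 for CDKB2-1 (1.41 to 2.02) and 1.64 for CDKB2-2 (1.37 to 1.98). In s215 they stood at 0.0660 (0.0352 to 0.118) and 0.0662 (0.0359 to 0.120) of wild type. CDKB1-2 missed the minimum, at 0.381, 0.877, 0.973 and 0 RPKM, and was at least 3.31-fold lower in s215 than in wild type.

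CDKA-1 (AT3G48750), the kinase that works in both G1 and G2, was nearly flat. It was at 19.0 RPKM in wild type, at 19.6 in atprmt5, at 22.5 in m90 and at 17.3 in s215. The ratio of s215 to wild type was 0.909 (0.795 to 1.04), so that the low cyclin and CDKB levels of s215 were not shared by this kinase.

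CDC20.1 and CDC20.2, which activate the anaphase-promoting complex in mitosis, followed the B-type cyclins. CDC20.1 was at 3.61 RPKM in wild type, at 5.81 in atprmt5, at 7.90 in m90 and at 0.228 in s215, and CDC20.2 at 0.933, 1.58, 1.93 and 0.0322. Both were thus in the climbing order and lowest in s215. The ratios of m90 to wild type were 2.19 (1.74 to 2.76) and 2.07 (1.297 to 3.31). These neighbours share sequence, 20.6% of the 100-base windows of CDC20.1 and 22.4% of those of CDC20.2, so the split between them is uncertain. CCS52A1, which activates the same complex when cells leave division for endoreduplication, did not climb, at 7.31, 7.21, 6.57 and 4.10 RPKM. Its ratio of m90 to wild type was 0.898 (0.742 to 1.08), an interval that holds 1. Like both CDC20 genes it was lowest in s215, though by less, at 0.560 of wild type (0.450 to 0.696).

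KNOLLE (AT1G08560), the syntaxin that fuses vesicles at the forming cell plate, was the most abundant of the 49 in 3 of the 4 libraries. It was at 155 RPKM in wild type, at 217 in atprmt5, at 242 in m90 and at 9.78 in s215. The ratio to wild type was 1.40 in atprmt5 (1.35 to 1.46), 1.56 in m90 (1.504 to 1.62) and 0.0630 in s215 (0.0556 to 0.0713). It made up 58.8% of the G2/M sum in wild type, and without it the sum was 109, 145, 198 and 4.12 RPKM, in the same order. KNOLLE overlaps AT1G08550 on the opposite strand by 464 bases. That gene was at 69.4, 44.2, 50.1 and 27.5 RPKM, and whether reads were counted by strand is not given in the sources used here.

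**Figure D3:**
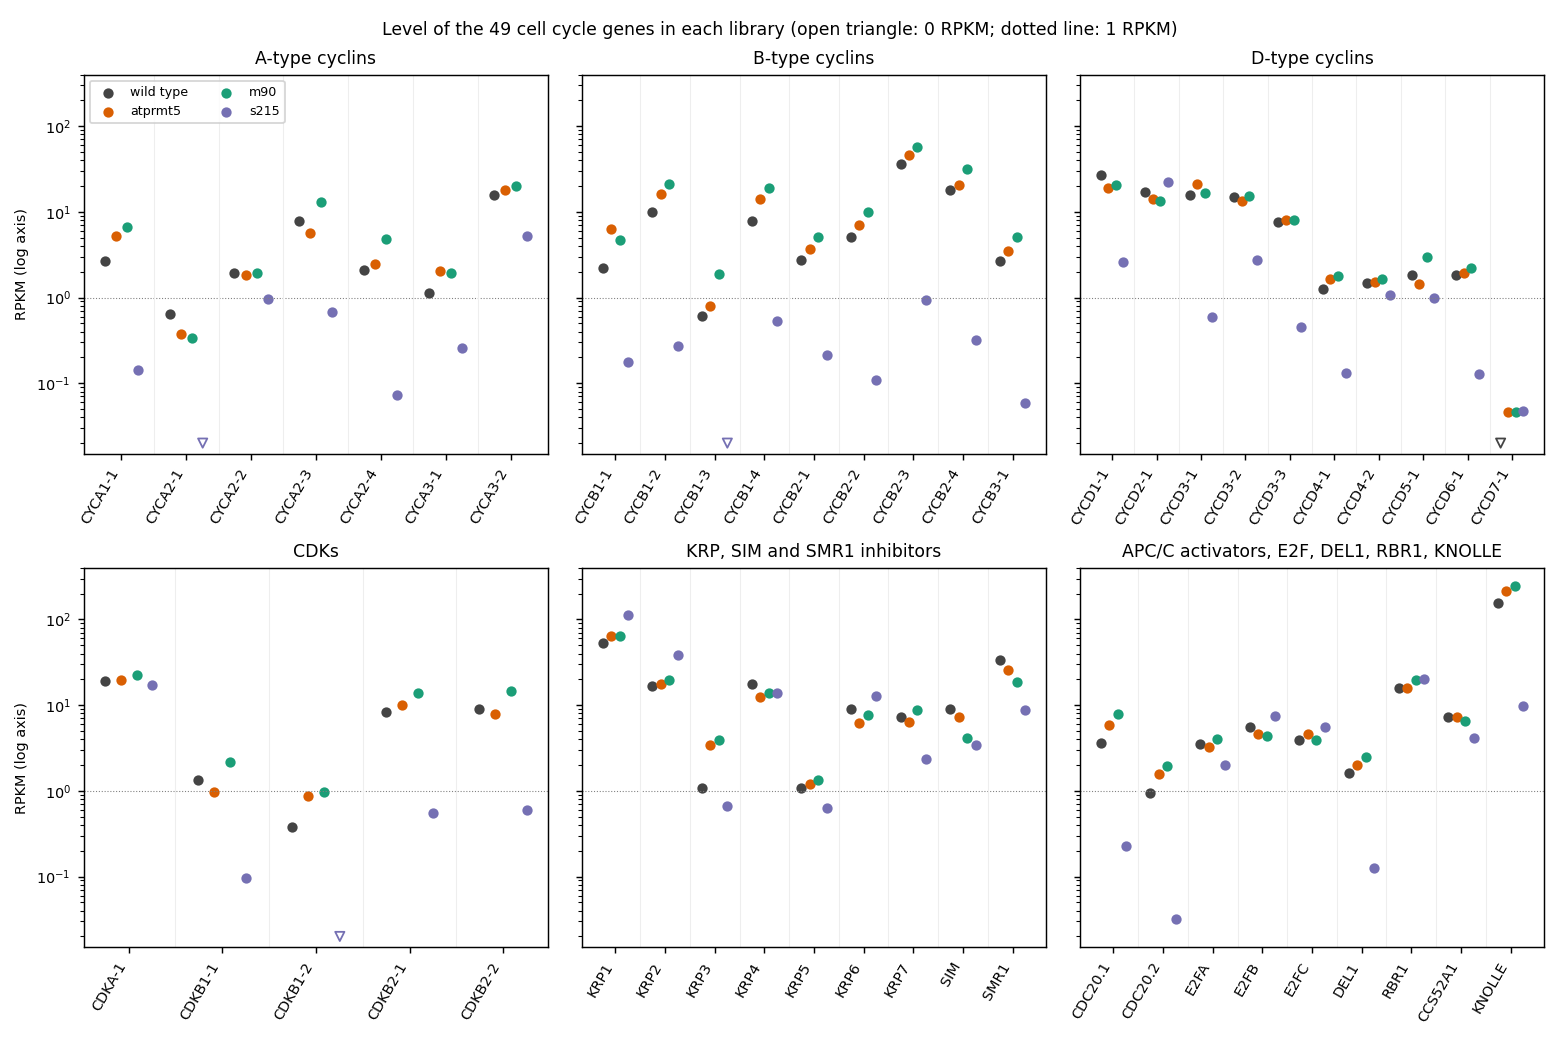
RPKM of the 49 genes in each of the 4 libraries on a log axis, by family, with open triangles for 0 RPKM. The B-type cyclins climb from wild type to m90 in 8 of 9 genes and drop below 1 RPKM in s215, while KRP1, KRP2, KRP6 and RBR1 lie above their wild-type level there.

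A-type cyclins, which act from S phase to mitosis, were all lowest in s215, by unlike amounts. CYCA3-2 (AT1G47210), the most abundant, of a subfamily known for S phase, was at 15.7 RPKM in wild type, at 17.9 in atprmt5, at 19.9 in m90 and at 5.29 in s215. CYCA2-3, known to restrain endoreduplication together with CDKB1-1, was at 7.84, 5.63, 12.9 and 0.671 RPKM. CYCA1-1 was at 2.70, 5.24, 6.61 and 0.142 RPKM. CYCA2-3 dipped in atprmt5 and was the 1 member past 2-fold between m90 and atprmt5 on the scale of RPKM + 1. Its plain ratio of RPKM was 2.28 (1.92 to 2.73), and CDKB1-1 and CYCD5-1 were also past 2-fold by plain RPKM. CYCA1-1 was 1.94-fold higher in atprmt5 than in wild type (1.46 to 2.59) and 2.45-fold higher in m90 (1.86 to 3.22).

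Among the weaker A-type cyclins, CYCA2-4 was at 2.07 RPKM in wild type, at 2.47 in atprmt5, at 4.84 in m90 and at 0.0725 in s215. CYCA3-1 was at 1.13, 2.03, 1.93 and 0.261 RPKM, and CYCA2-2 at 1.93, 1.82, 1.93 and 0.970. CYCA2-2 was thus level in the first 3 libraries and at 0.502 of wild type in s215 (0.308 to 0.793), the mildest drop of the family. CYCA2-1 missed the minimum, at 0.648, 0.376, 0.336 and 0 RPKM, and was at least 4.935-fold lower in s215 than in wild type. In s215, CYCA3-2 kept 0.337 of its wild-type level (0.276 to 0.410), CYCA2-3 0.0855 (0.0528 to 0.133) and CYCA1-1 0.0526 (0.0140 to 0.140).

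D-type cyclins, the G1 sensors of sugar and hormone signals, were within 2-fold of wild type in atprmt5 and m90 in all 9 measured genes, and diverged from one another in s215. CYCD1-1 (AT1G70210), the most abundant in wild type, was at 27.2 RPKM there, at 19.0 in atprmt5, at 20.6 in m90 and at 2.56 in s215. CYCD3-1, a cytokinin-responsive cyclin, was at 15.8, 20.9, 16.7 and 0.594 RPKM. CYCD3-2 was at 14.8, 13.2, 15.1 and 2.77 RPKM and CYCD3-3 at 7.60, 8.12, 8.12 and 0.457. The 3 CYCD3 genes, which together prolong the dividing phase of leaves, were thus low in s215. CYCD2-1 (AT2G22490) was the exception of the family, at 16.8, 14.3, 13.2 and 22.6 RPKM, highest in s215. It made up 72.1% of the D-type sum in s215 and 19.0% in wild type.

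The ratio of s215 to wild type was 1.34 for CYCD2-1 (1.19 to 1.51), 0.187 for CYCD3-2 (0.143 to 0.244), 0.0943 for CYCD1-1 (0.0751 to 0.117), 0.0601 for CYCD3-3 (0.0294 to 0.110) and 0.0377 for CYCD3-1 (0.0218 to 0.0611). The intervals of CYCD2-1 and of the others named do not meet. In atprmt5 CYCD1-1 had the lowest log2 ratio to wild type of all measured members, at -0.50, and a ratio of 0.698 (0.632 to 0.772). CYCD3-1 was higher there, at 1.33 (1.17 to 1.502), and back near wild type in m90, at 1.06 (0.934 to 1.21). CYCD3-1 overlaps AT4G34150 by 40 bases on the same strand, and that neighbour was at 68.5, 34.2, 152 and 59.9 RPKM.

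The remaining D-type cyclins were low. CYCD5-1 was at 1.85 RPKM in wild type, at 1.42 in atprmt5, at 2.98 in m90 and at 0.990 in s215, and 2.09-fold higher in m90 than in atprmt5 (1.42 to 3.11). CYCD4-1 was at 1.25, 1.63, 1.80 and 0.132 RPKM and CYCD4-2 at 1.47, 1.504, 1.66 and 1.07. CYCD4-2 thus kept most of its level in s215, at 0.732 of wild type, with an interval (0.393 to 1.37) that holds 1. CYCD6-1, known for formative divisions of the root ground tissue, was at 1.84, 1.94, 2.24 and 0.127 RPKM. It overlaps AT4G03260 on the opposite strand by 847 bases, and that gene was between 21.1 and 33.2 RPKM. CYCD7-1, which acts in the division that forms guard cells, had 0 reads in wild type and 1 read in each other library, so no ratio is given.

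KRP inhibitors, which bind D-type cyclin and CDKA complexes, split into genes that were high in s215 and genes that were not. KRP1 (AT2G23430), the most abundant, was at 53.0 RPKM in wild type, at 63.6 in atprmt5, at 64.5 in m90 and at 114 in s215. KRP2, known to hold back lateral root initiation, was at 16.7, 17.8, 19.8 and 38.8 RPKM. KRP6 was at 8.99, 6.11, 7.65 and 12.9 RPKM. All 3 were highest in s215, with ratios to wild type of 2.15 for KRP1 (1.98 to 2.33), 2.32 for KRP2 (2.02 to 2.68) and 1.43 for KRP6 (1.17 to 1.75). KRP1 and KRP2 made up 83.4% of the KRP sum in s215 and 65.8% in wild type.

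KRP7 was low in s215, at 7.23 RPKM in wild type, at 6.36 in atprmt5, at 8.68 in m90 and at 2.34 in s215, a ratio to wild type of 0.323 (0.210 to 0.485). KRP4 was at 17.9, 12.5, 13.9 and 13.9 RPKM, lower than wild type in the other 3 libraries, with a ratio of 0.701 in atprmt5 (0.605 to 0.812). It overlaps AT2G32720 on the opposite strand by 926 bases, and that gene was at 47.4, 52.3, 67.1 and 11.2 RPKM. KRP5 was at 1.07, 1.21, 1.34 and 0.622 RPKM, with intervals that hold 1 in each comparison.

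KRP3 (AT5G48820) was the member with the highest log2 ratio of m90 to wild type, at 1.25. It was at 1.08 RPKM in wild type, at 3.43 in atprmt5, at 3.95 in m90 and at 0.666 in s215. The ratio to wild type was 3.19 in atprmt5 (1.93 to 5.47) and 3.67 in m90 (2.24 to 6.25), against 0.618 in s215 (0.284 to 1.29). KRP3 thus climbed in atprmt5 and m90 as the mitotic genes did, on 21 reads in wild type. Its interval in s215 holds 1, so there it could not be told from wild type, while it was at 0.194 of atprmt5 (0.0984 to 0.354).

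SIM and SMR1, inhibitors of the SIAMESE family that promote endoreduplication in trichomes and in the large cells of sepals and leaves, ran opposite to the G2/M genes in the first 3 libraries. SMR1 (AT3G10525) was at 33.2 RPKM in wild type, at 25.95 in atprmt5, at 18.5 in m90 and at 8.78 in s215. SIM (AT5G04470) was at 9.10, 7.26, 4.18 and 3.41 RPKM. The 2 genes fell off in the same order and were lowest in s215. The ratio of m90 to wild type was 0.556 for SMR1 (0.470 to 0.658) and 0.460 for SIM (0.332 to 0.632), the lowest of all measured members. In s215 the ratios were 0.264 (0.209 to 0.328) and 0.375 (0.263 to 0.529). Their low values in s215 were thus not those of KRP1 and KRP2, although all are CDK inhibitors. Each overlaps a gene on the opposite strand, AT3G10527 and AT5G04475, whose values were not analysed here.

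E2F factors and RBR1, which act at the G1/S boundary, kept or exceeded their wild-type level in s215 in 3 of 5 genes. RBR1 (AT3G12280) was at 15.8 RPKM in wild type, at 15.7 in atprmt5, at 19.8 in m90 and at 19.99 in s215. Its ratio to wild type was 1.25 in m90 (1.15 to 1.36) and 1.26 in s215 (1.16 to 1.37). E2FB, an activator, was at 5.53, 4.57, 4.34 and 7.38 RPKM, and E2FC, a repressor, at 3.89, 4.57, 3.93 and 5.54. Both were highest in s215. E2FA, also an activator, was at 3.56, 3.25, 4.03 and 2.002 RPKM, and 0.563 of wild type in s215 (0.418 to 0.759). DEL1, an atypical E2F that delays the onset of endoreduplication, was at 1.59, 2.02, 2.51 and 0.125 RPKM. DEL1 was thus the member of this family that followed the mitotic genes, at 0.0782 of wild type in s215 (0.0206 to 0.213).

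**Figure D4:**
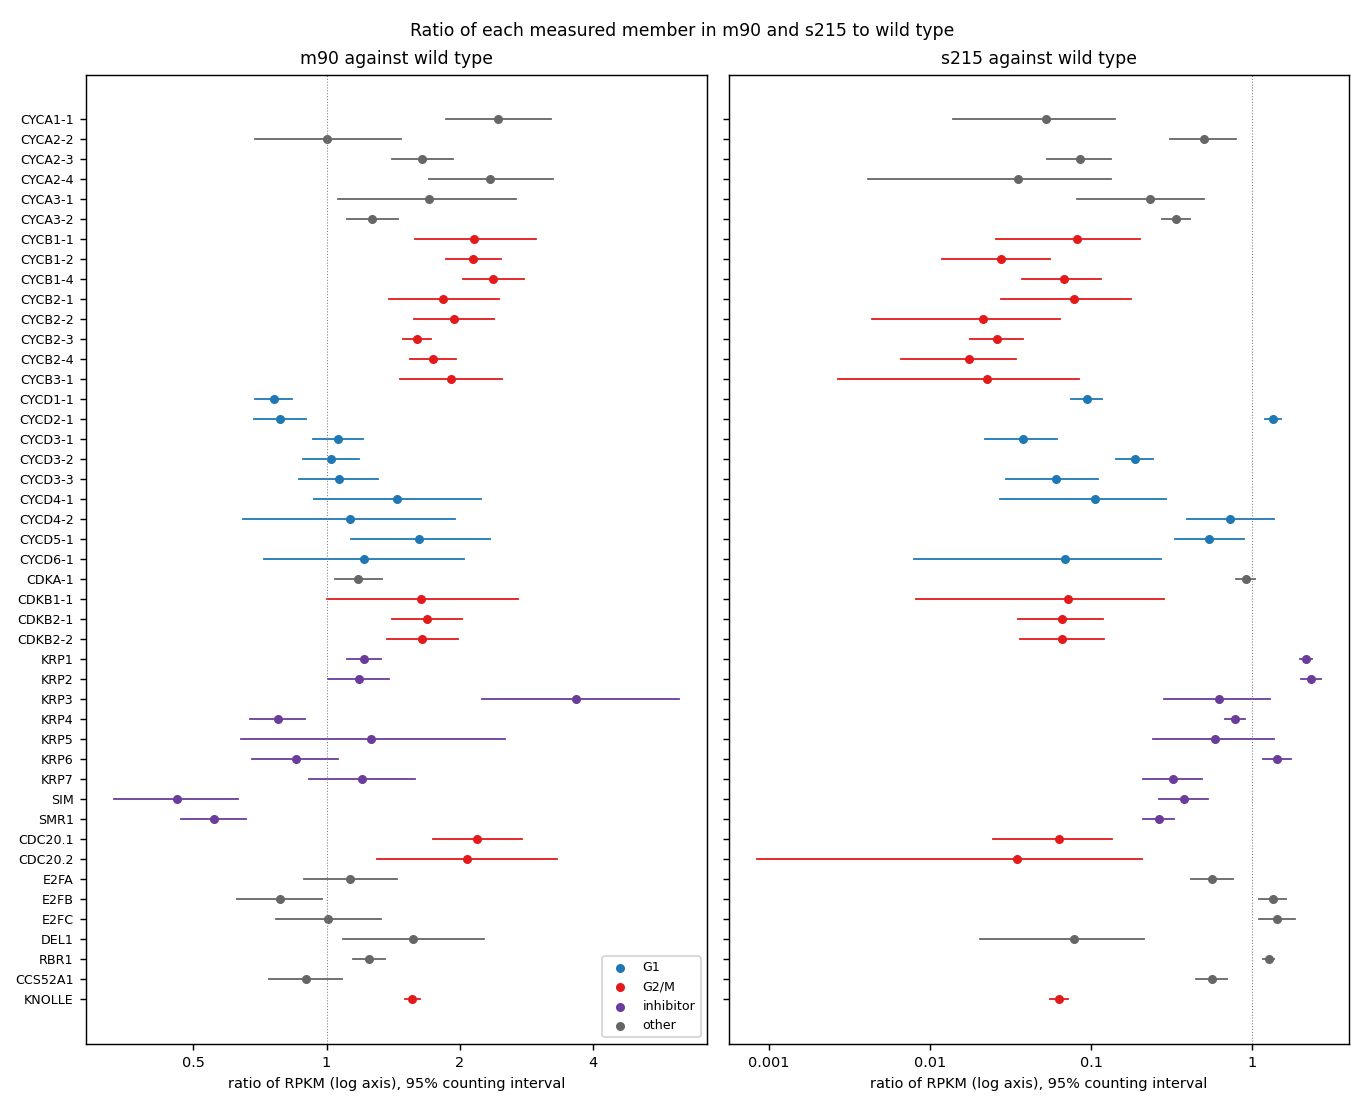
Ratio of RPKM to wild type for each of the 45 measured members in m90 (left) and s215 (right), on log axes, with 95% exact counting intervals and colours for the phase groups. In m90 the B-type cyclins lie between 1.60 and 2.38 and SIM and SMR1 below 1, and in s215 KRP1, KRP2, KRP6, CYCD2-1, E2FB, E2FC and RBR1 are the 7 members above 1.

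Exon number differed between the roles. In m90 against wild type the median log2 ratio was 0.66 for 19 measured members with 8 or more exons, 0.32 for 17 with 4 to 7 and 0.18 for 9 with 1 to 3. All loci with 8 or more exons had a median of -0.05. In s215 against wild type the medians of the members were -1.52, -1.33 and -0.35, beside 0.08, -0.16 and -0.34 for all loci of these classes. The KRP genes, SIM and SMR1 have 1 to 4 exons. Of the G2/M genes, KNOLLE, with 2 exons, was at 0.0630 of wild type in s215 and CYCB1-2, with 4, at 0.0276. RBR1, with 18 exons, was at 1.26 of wild type there and CDKA-1, with 9, at 0.909. Single members thus departed from the medians of their exon classes. Exon number goes with role among the members, and its part in these values was not tested.

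Other genes of the pathway were taken from a list of 41 loci, of which 40 were listed with values and 35 passed the minimum. In atprmt5 against wild type 0 were past 2-fold in either direction, beside 1.8% higher and 3.32% lower of all loci. In m90 against wild type 2 were higher (5.71%) and 0 lower, beside 2.61% and 2.62%. With 35 genes, these 2-fold counts are near the shares of all loci. At 1.5-fold 5 were higher and 1 lower in atprmt5 than in wild type, beside 7.26% and 10.1%. In m90 10 were higher and 0 lower than wild type at 1.5-fold, beside 8.79% and 9.6%. The order rising from wild type through atprmt5 to m90 was held by 12 of the 35, beside 15.0% of all loci. HINKEL, a kinesin of cytokinesis, was at 18.2 RPKM in wild type, at 28.8 in atprmt5, at 39.5 in m90 and at 0.535 in s215, which is the order seen for KNOLLE. SMR5, an inhibitor of the SIAMESE family that responds to DNA damage, was at 1.91, 2.92, 5.12 and 5.89 RPKM. It was thus high in m90 and s215 where SIM and SMR1 were low. Its levels rest on only 7.47, 11.8, 20.5 and 23.0 recovered reads in the same order of libraries. In m90 against atprmt5 0 were past 2-fold, beside 3.63% and 2.34%, and at 1.5-fold 5 were higher and 1 lower, beside 8.44% and 8.81%.

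In s215 against wild type 2 of the 35 were higher, SMR5 and CYCB1-5, and 15 were lower. These are 5.71% and 42.9% of the list, beside 12.7% and 24.3% of all loci. The 15 were CKS2, CCS52B, DEL3, MYB3R4, AUR1, AUR2, AUR3, HINKEL, TETRASPORE, MAP65-3, OSD1, PANS1, CDT1B, CDC6 and TSO2. MYB3R4, an activator that binds MSA elements, was at 2.69 RPKM in wild type, at 4.14 in atprmt5, at 5.21 in m90 and at 0.129 in s215. Its ratio to wild type was 1.94 in m90 (1.61 to 2.36) and 0.0480 in s215 (0.0204 to 0.0970). TSO2, a ribonucleotide reductase subunit of S phase, was at 14.8, 30.5, 29.1 and 2.23 RPKM, and CCS52B, a mitotic activator of the anaphase-promoting complex, at 13.7, 14.9, 24.5 and 1.21. CYCB1-5 was at 0.225, 0.9998, 0.130 and 2.90 RPKM, opposite in s215 to all 9 B-type cyclin members. Against atprmt5, 1 of the 35 was higher in s215 (SOG1, a regulator of the DNA damage response, at 22.2 against 10.03 RPKM) and 17 were lower, with WEE1 and CDT1A added to the 15, beside 12.7% and 23.2% of all loci.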

How the data were processed

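RNA from 12-day seedlings of 4 genotypes was sequenced, with 1 library each. The values are RPKM, deposited by the authors in 1 table (24288 loci, 4 libraries), with each column matched to its sample by name. Per the submitters' processing notes TopHat2 2.0.11 and the build TAIR10 were used; per the labels' protocols the libraries were strand-specific. How reads were counted (program, strand, multiple matches) is not given in the sources used here.

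From these values, log2((RPKM + 1)/(RPKM + 1)) was computed for 5 pairs of libraries, over the 18688 loci whose mean reached 1 RPKM, with thresholds of 2-fold and 1.5-fold (Python 3.11.15, pandas 2.3.3, numpy 2.4.6, SciPy 1.17.1). No test was run. Reads were recovered by finding, per locus, a length of up to 12000 bases at which the values were whole bases of 100-base reads within 0.0001 bases. This was done for 40 members at the smallest such length and for 9, KNOLLE among them, at a multiple nearest the annotated length, so reads and intervals are approximate. Intervals are exact (Clopper-Pearson, conditional on the summed reads, 95%), and reads are not independent molecules. The ratio and interval steps were tested on simulated data. Promoter bases, positions, overlaps and shared 100-base windows came from RefSeq TAIR10.1, which holds all 49 symbols; coordinates come from it alone.

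The members, families and lists were chosen with earlier results of these data known. All members are given in the 4 libraries. Ratios are given for the 5 highest and 5 lowest in each pair, those past 2-fold, the most abundant of each family and those at 0, with further ones added after their values were seen. Of the pathway list, loci past 2-fold are named. The marker genes CRU2 and WUS and the pathway gene CYCA3-3 were not analysed here, and a list of 5 seed markers in the table is given in the closing section.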

Additional observations from a re-analysis of the deposited data

How the results depend on the processing

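No paired analysis was possible because each genotype has 1 library, and for the same reason no replicate could be left out. Each count of members past 2-fold and each median of a phase group was recomputed under 6 alternatives planned with earlier results known, and under 1 more (a minimum mean without the s215 library) chosen after the data were seen, which moved none beyond the limits given next in the 3 pairs without s215. Of 165 recomputed values 150 stayed within 1.5 times the count, or within the 95% binomial interval of the median. That interval runs over the genes of a group, which are not replicates, and is wide. For G2/M in s215 against wild type it ran from -3.86 to -1.44. A median of -3.70 at a pseudocount of 0.1 RPKM, beside -2.50, thus counted as staying, so this limit is loose. No median whose interval excluded 0 changed sign. At a minimum of 5 RPKM 3 other medians did: -0.15 for G1 in atprmt5 against wild type, -0.21 for inhibitors in m90 against wild type and 0.14 for inhibitors in s215 against atprmt5. With a pseudocount of 0.1 RPKM, m90 had 7 members higher and 1 lower than wild type, beside 4.27% and 4.45% of all loci. It also had 3 higher than atprmt5, beside 5.01%, and s215 had 2, beside 14.5%. The medians of s215 against atprmt5 were then -2.84 for G1 and -4.47 for G2/M. With a pseudocount of 0.5 RPKM, m90 had 1 member lower than wild type and s215 had 2 higher than atprmt5, beside 3.42% and 13.6%. With a minimum of 5 RPKM, which leaves 26 members, atprmt5 had 0 and m90 had 2 higher than wild type, beside 1.46% and 2.68%. At that minimum s215 had 17 lower than wild type and 16 lower than atprmt5, beside 22.4% and 20.9%. Centred on the median of all loci, s215 had 2 members higher than atprmt5, beside 15.0%. Centred on the trend with length and GC content, m90 had 1 member lower than wild type, beside 2.43%. By the same centring s215 had 3 higher than atprmt5, beside 14.7%. Depth limits the genes near 1 RPKM, where s215 levels rest on few reads, and recovered reads are approximate.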

Other observations

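From a list of 5 seed storage and oil body genes in the table, 4 fell from wild type through atprmt5 to m90. SESA1 was the exception and was highest in atprmt5. The 5 summed to 172, 43.6, 0.446 and 0.355 RPKM in wild type, atprmt5, m90 and s215. The cruciferin gene CRA1 was at 67.8, 19.2, 0.157 and 0.193 RPKM in that order of libraries. The m90 and s215 libraries were thus alike for seed transcripts and at opposite ends for G2/M transcripts. SIM, SMR1, CCS52A1, CYCD2-1 and E2FB also fell from wild type through atprmt5 to m90. These are 5 of 45 measured members, beside 19.3% of all loci, so the order is common. The seed list's part in any cell cycle value was not tested.

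The other three-repeat MYB genes did not drop in s215 as far as MYB3R4. MYB3R3, a repressor of G2/M genes, was at 5.997, 7.37, 7.42 and 8.61 RPKM, and MYB3R5, a further repressor, at 1.55, 1.88, 1.205 and 2.26. MYB3R1 was lowest in s215, at 3.93, 3.17, 3.98 and 2.33 RPKM and at 0.594 of wild type there (0.480 to 0.733). The adaptor genes CKS1 and CKS2, neighbours on the chromosome whose products bind CDKs, also differed from each other. CKS1 was at 34.7, 25.8, 38.4 and 19.8 RPKM, whereas CKS2 was at 2.04, 4.99, 4.22 and 0.402. CCS52A2, which activates the anaphase-promoting complex in endoreduplicating cells and in root meristems, was at 3.71, 4.11, 4.02 and 6.21 RPKM, highest in s215, where CCS52A1 was lowest.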
